A study of Mus musculus with 2 samples.

Results

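Entpd1 and Slc17a9 encode proteins that act at opposite steps of extracellular ATP handling, and they were examined in cultured FAPs (fibro/adipogenic progenitors), which are stromal cells resident in muscle. Both genes were taken by name from the authors' deposited table, so they make up 2 of its 179 genes. They were selected on their deposited levels and Musclin over vehicle ratios, so these values are given as a description with no test. The Musclin group was 1 library of C57BL/6 FAPs exposed to recombinant mouse Musclin at 1 µM for 72 hours, and the vehicle group was 1 library of C57BL/6 FAPs exposed to the carrier alone for the same time. Both cultures were freshly sorted cells grown with 20% fetal bovine serum, the medium and its additive were renewed each day, and total RNA was sequenced. The column headed PBS was taken as vehicle, since it is the other library and the denominator of the deposited folds. With 1 library per group there is no replicate check of any difference, and a change in the number of expressing cells cannot be told apart from a change in RNA per cell.

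ATP outside the cell is a signal that acts on P2X ion channels and P2Y receptors. It leaves cells through channels or by exocytosis of vesicles, and Slc17a9, the vesicular nucleotide transporter (VNUT), loads those vesicles with ATP. Entpd1 (CD39) is a membrane ectoenzyme that hydrolyses ATP and ADP to AMP, from which Nt5e (CD73) makes adenosine, the ligand of the adenosine receptors. Musclin, the product of the Ostn gene, is released by muscle and is a ligand of Npr3, the receptor that clears natriuretic peptides.

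Entpd1 (ENSMUSG00000048120) spans chr19:40612366-40741602 on the plus strand of GRCm38 and Slc17a9 (ENSMUSG00000023393) spans chr2:180725263-180742280, also on the plus strand. GENCODE M21 gives Entpd1 11 transcripts of 204 to 4221 nt, of which 4 are typed as protein-coding, and 7 are no longer than 628 nt. It gives Slc17a9 5 transcripts of 506 to 2275 nt, of which 1 is typed as protein-coding. The long coding forms of Entpd1, of 4221 nt and 2409 nt, begin at different first exons. The first 90 coding bases of each are shown because this is where the forms differ, with those of the only coding form of Slc17a9. The start codons, in capitals, begin at position 40659885 (4221-nt form) and 40612421 (2409-nt form) of chromosome 19 and position 180725360 of chromosome 2.
Entpd1, 4221-nt form: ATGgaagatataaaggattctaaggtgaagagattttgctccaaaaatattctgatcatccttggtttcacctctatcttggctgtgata
Entpd1, 2409-nt form: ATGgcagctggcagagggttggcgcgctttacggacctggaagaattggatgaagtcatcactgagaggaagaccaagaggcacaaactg
Slc17a9, 2275-nt form: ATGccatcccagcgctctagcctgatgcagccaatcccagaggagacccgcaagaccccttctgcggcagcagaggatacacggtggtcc
Stop codons excluded, the 4221-nt form has 510 codons and the 2409-nt form 539. They share their last 1515 coding bases, so that only the first 15 coding bases of the 4221-nt form and the first 102 of the 2409-nt form are their own. The Slc17a9 form has 447 codons. The table holds 1 value per gene and library and does not separate these forms.

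RefSeq gives 2 annotated starts for Entpd1 on GRCm38.p6, and the 250 bases before each are shown because these starts lie at or just before the first exons of the 2 long coding forms. No window was printed for Slc17a9. Capitals mark CCAAT and TGACG on either strand (ATTGG and CGTCA on the reverse strand).
Upstream of the first start, chr19:40612116-40612365, plus strand: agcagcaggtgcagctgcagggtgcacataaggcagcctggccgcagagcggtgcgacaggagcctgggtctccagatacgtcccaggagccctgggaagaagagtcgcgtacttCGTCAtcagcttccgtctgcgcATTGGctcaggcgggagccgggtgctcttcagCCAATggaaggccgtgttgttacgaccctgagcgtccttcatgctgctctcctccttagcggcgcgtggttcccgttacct
Upstream of the second start, chr19:40659520-40659769, plus strand: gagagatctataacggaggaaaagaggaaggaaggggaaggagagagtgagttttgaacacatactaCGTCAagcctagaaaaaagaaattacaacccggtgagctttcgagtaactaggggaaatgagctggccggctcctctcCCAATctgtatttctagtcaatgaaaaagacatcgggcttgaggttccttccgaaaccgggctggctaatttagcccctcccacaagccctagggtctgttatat
The first window held 18 CpG and 62.4% G and C, and the second held 8 CpG and 47.2%. The medians over 32851 RefSeq windows of this length were 6 CpG and 52.4%. CCAAT matched 2 times in the first window and 1 time in the second, and 33.8% of all windows held it. TGACG matched once in each, and 17.8% of all windows held it. TGACGTCA, held by 1.55% of all windows, TATAAA, held by 12.4%, and GGGCGG, held by 32.7%, matched in neither. These motifs were searched on both strands, and TGACGTCA contains TGACG. A match describes the letters only.

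Entpd1 was lower and Slc17a9 higher in the Musclin library, so the genes for ATP breakdown and for vesicular ATP loading differed in opposite directions. Entpd1 had a level of 0.85 in the Musclin library and 27.58 in the vehicle library. Slc17a9 had a level of 1.33 in the Musclin library and 0.03 in the vehicle library. The level is the deposited expression signal per gene, whose unit the file header does not name and which fell with transcript length at a given number of reads. Each gene had a level below 1 in 1 of the libraries. Among the 179 listed genes Entpd1 ranked 102 by level in the Musclin library and 14 in the vehicle library. Slc17a9 ranked 90 in the Musclin library and 151 in the vehicle library. The median level of listed genes was 1.33 in the Musclin library, the value of Slc17a9 itself, and 0.86 in the vehicle library. The log2 ratio of levels, Musclin over vehicle, was -5.02 for Entpd1 and 5.47 for Slc17a9. Of the 138 listed genes above 0 in both libraries, 45 were lower and 93 higher in the authors' deposited table, and Entpd1 had the lowest level ratio of the 45 and Slc17a9 the highest of the 93.

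The authors' deposited table gives Entpd1 a fold of 0.31 (log2 -1.69, adjusted p = 3.24e-09). In the authors' deposited table Slc17a9 has a fold of 15.3 (log2 3.94, adjusted p = 0.00758). These p-values compare the 2 libraries, not the conditions. By p, Entpd1 ranked 215 and Slc17a9 734 of 23180 genes tested. The table lists 0.772% of all genes tested, 0.5% as higher and 0.272% as lower, which is printed as background only, since the listing chose both genes. By fold in the authors' deposited table neither gene was the most changed. Counting also genes at 0 in 1 library, Entpd1 ranked 45 of the 63 lower genes, and Slc17a9 ranked 26 of the 116 higher genes. Among the 138 genes above 0 in both libraries, Entpd1 ranked 27 of 45 by fold and Slc17a9 ranked 3 of 93. The level ratio and the fold are thus different quantities for these genes, and the reads behind them were recovered to see how far they differ.

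For the 178 genes with a p above 0, the authors' fold and p were solved for the reads of the gene in each library, with a formula for the log ratio of 2 counts. All 356 values obtained lay within 1.8e-07 of a number with 2 decimals, with totals of 19269000 reads in the Musclin library and 22741000 reads in the vehicle library. Entpd1 had 33 reads in the Musclin library (exact Poisson 95% interval 22.7 to 46.3) and 125.45 in the vehicle library (104 to 149, for 125 reads). Slc17a9 had 13 reads in the Musclin library (6.92 to 22.2) and 1 read in the vehicle library (0.0253 to 5.57). The intervals cover counting error only and are not scaled to the library totals. Whether they overlap is not read as a result, because the listing chose both genes and the reads were solved from its p-values. Relative to these totals, Entpd1 had 1.71 CPM in the Musclin library and 5.52 CPM in the vehicle library, and Slc17a9 had 0.675 CPM in the Musclin library and 0.044 CPM in the vehicle library.

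**Figure D1:**
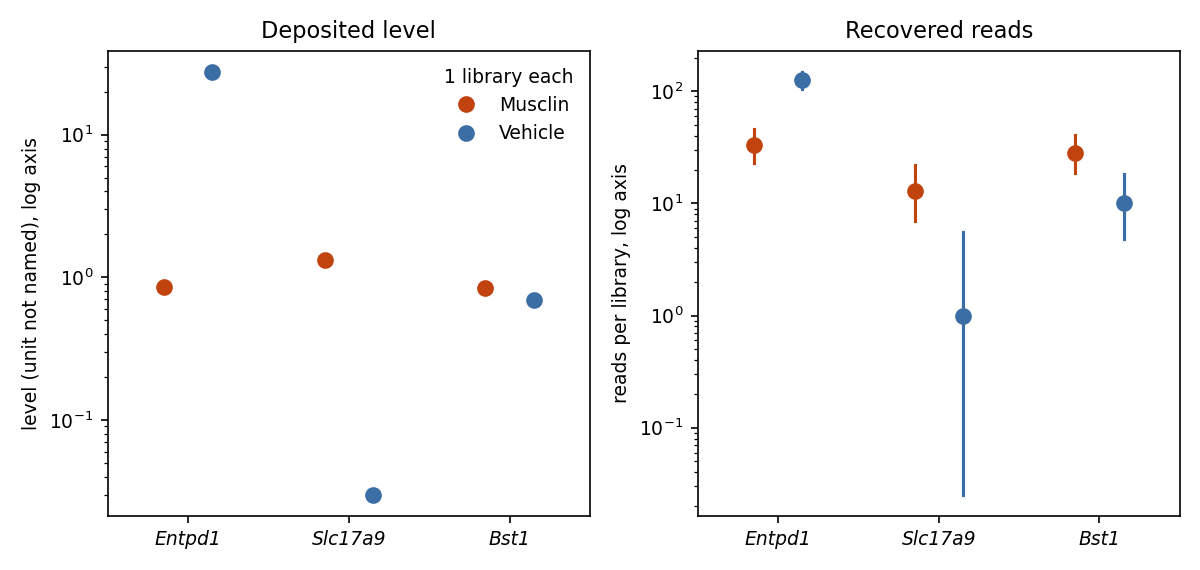
Deposited levels (left) and recovered reads (right) of Entpd1, Slc17a9 and Bst1 in the Musclin and vehicle libraries, 1 library each, on log axes; bars are exact Poisson 95% intervals. Entpd1 had 33 reads in the Musclin library against 125.45 in the vehicle library, and Slc17a9 had 13 against 1.

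The fold of Slc17a9 therefore rests on 1 vehicle read. With its counting interval, from the exact binomial (Clopper-Pearson) bounds of the share of reads, the fold of 15.3 runs from 2.3 to 652. The level ratio of 44.3 adds the rounding of the vehicle level: a printed 0.03 can stand for 0.025 to 0.035, which gives 37.9 to 53.4. For Entpd1 the counting interval of the fold of 0.31 was 0.206 to 0.46, and the level ratio of 0.0308 (0.0306 to 0.031 with rounding) lay below it. Of 18 ATP release genes and of 9 SLC17 family genes, 1 was listed, beside 0.772% of all genes tested. It was Slc17a9 itself in each case, so nothing is read from these counts. Of 19 ectonucleotidases 2 were listed, Entpd1 as lower and Bst1 as higher, or 1 of 18 without Entpd1, beside the same 0.772%.

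Entpd1 had the widest gap between level ratio and fold of the 138 genes above 0 in both libraries. Slc17a9 had the fifth widest by the printed levels. The log2 level ratio minus the authors' log2 fold was -3.33 for Entpd1 and 1.53 for Slc17a9. Over the 138 genes the median of this gap was -0.0023, with quartiles of -0.0212 and 0.0333, and 103 genes lay within 0.1. It exceeded 1 in size for 8 genes: Entpd1, Fxyd3, Gm12940, Gm26616, Slc17a9, Gm3892, Bst1 and Fgf22. With rounding, the log2 level ratio of Slc17a9 runs from 5.24 to 5.74, so its order against Gm26616, Gm3892 and Bst1 is not resolved. Fxyd3, which encodes a regulator of the sodium pump, had a gap of -2.09, and Fgf22, a fibroblast growth factor, had 1.08. The difference between libraries was larger by level than by reads for Entpd1 and Slc17a9, and smaller by level for Bst1.

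**Figure D2:**
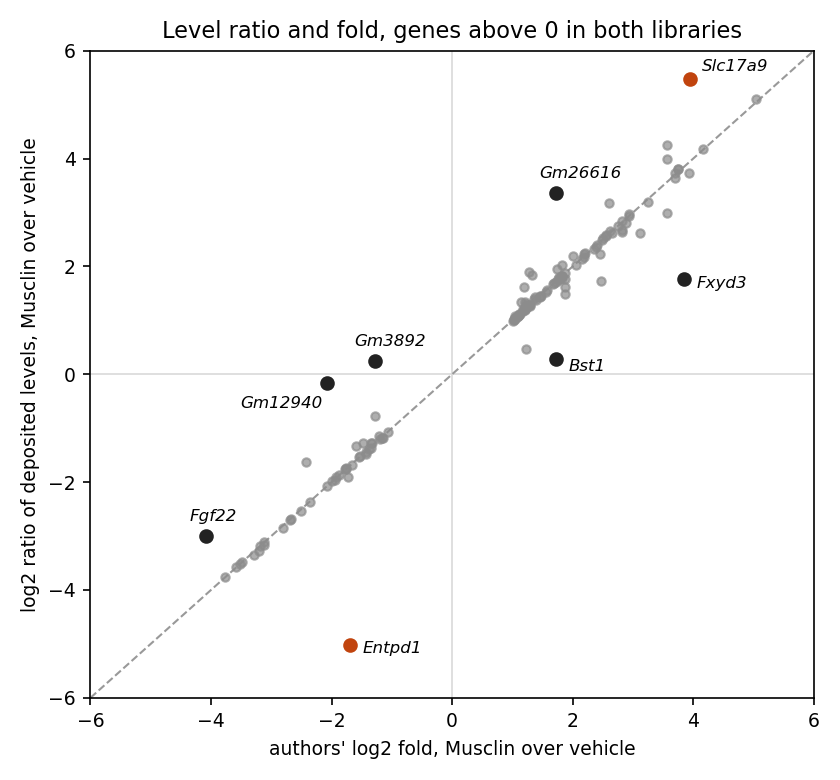
Log2 ratio of deposited levels (vertical) against the authors' log2 fold (horizontal), both Musclin over vehicle, for the 138 listed genes above 0 in both libraries; the dashed line marks equal values and the 8 genes more than 1 from it are named. Entpd1 lies at -5.02 by level and -1.69 by fold, and Slc17a9 at 5.47 and 3.94.

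The gap equals a difference between the libraries in level per CPM, and so, apart from the ratio of the library totals, in level per read. For Entpd1, 100 reads corresponded to a level of 2.58 in the Musclin library and 22.0 in the vehicle library. For Slc17a9, 100 reads corresponded to 10.2 in the Musclin library and 3 in the vehicle library. In 34 listed genes with 1 annotated transcript of at least 1000 nt and at least 5 reads in both libraries, the level per read was inversely proportional to transcript length minus an offset of 279 nt in the Musclin library and 276 nt in the vehicle library, within 5% for 30 of the 34 genes in each library. Read through this relation, the level of Entpd1 implied a transcript length of 3271 nt in the Musclin library and 575 nt in the vehicle library. The 34 genes had transcripts of 1002 to 4415 nt, so the 575 nt is an extrapolation below their range. A gene with 1 annotated transcript could also depart widely from the relation. Level per read times length was 6240 (Musclin) and 5019 (vehicle) for Gm26561 of 1413 nt. It was 14.4 and 8.98 for Gm28047 of 1611 nt, against 94.1 and 79.6 for Gm10642 of 1610 nt. Where reads fall on several transcripts, short ones weigh more in the level per read, so an implied length is neither a plain mean nor the length of any 1 transcript, and some reads on a very short transcript could also give such a value. The Musclin value lies between the 2409-nt and 4221-nt coding forms, and the vehicle value lies among the 7 transcripts of at most 628 nt. For Slc17a9 the implied lengths were 1032 nt in the Musclin library and 2469 nt in the vehicle library (2156 to 2908 with rounding), the vehicle value from 1 read and with the 2275 nt of the coding form inside its range. Which transcripts received the reads was not analysed here.

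**Figure D3:**
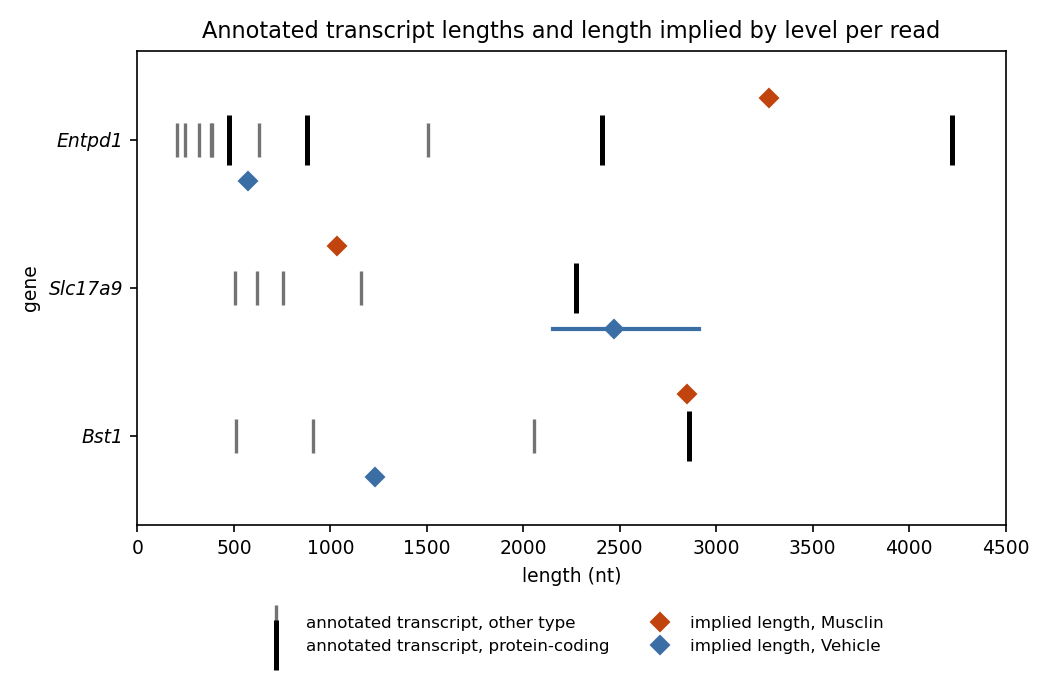
Annotated transcript lengths in nt (ticks, the taller ones protein-coding) and the length implied by the level per read (diamonds; lines span the rounding of the printed level) in the Musclin (above) and vehicle (below) libraries for Entpd1, Slc17a9 and Bst1. Entpd1 shows 3271 nt with Musclin and 575 nt with vehicle, the vehicle value being below the 1002 to 4415 nt of the genes behind the relation.

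No long, near-identical copy of either member was found among annotated transcripts, and shorter shared stretches were not counted as copies. The 125.45 vehicle reads of Entpd1 are not a whole number, and whether reads were shared with another gene was not tested. None of the 11 Entpd1 and 5 Slc17a9 transcripts matched another gene with 95% or higher identity along 50% of its length or more. Entpd1 spans 3 other genes on its own strand, Gm16027, Gm8783 and AC166063.1, with which it shares 0 exon bases, and no annotated gene overlaps Slc17a9. The nearest listed gene before Entpd1 on its chromosome was Hectd2os, 3.91 Mb away and higher, and before Slc17a9 it was Gm14308, 4.09 Mb away and higher. No gene after either of them on its chromosome was listed.

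Of 76 genes of extracellular purine handling or the SLC17 family, 3 were listed: Slc17a9 and Bst1 as higher and Entpd1 as lower. The 76 include all 9 SLC17 family genes, of which only Slc17a9 is also in the ATP release list. Without the members, this was 1 of 74 genes (1.35%), beside 0.772% of all genes tested. The 7 P2X receptors, 8 P2Y receptors, 4 adenosine receptors and 12 genes of adenosine uptake and metabolism had 0 listed members. Nt5e and the other Entpd family genes were not listed either. A gene that is not listed is not shown to be the same in both libraries, because a gene with few reads or a small fold may also be missing from the list.

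Bst1 (CD157), at chr5:43818885-43843986 on the plus strand, encodes a membrane-anchored ectoenzyme that uses NAD, not ATP. It had 28 reads in the Musclin library (18.6 to 40.5) and 10 in the vehicle library (4.8 to 18.4), and its fold in the authors' deposited table was 3.3 (adjusted p = 0.0147). Its levels were 0.84 in the Musclin library and 0.69 in the vehicle library. The implied transcript length of Bst1 was 2848 nt in the Musclin library, close to the 2856 nt of its coding transcript, and 1229 nt in the vehicle library. It shares 98 exon bases with Fbxl5 on the opposite strand, and without a stated strand setting, reads there are uncertain between both genes.

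The nearest genes were sought among the 138 listed genes above 0 in both libraries, since a level of 0 gives no log2 ratio. By log2 level ratio, those nearest to Entpd1 were Ccl19, a chemokine, at -3.76, Gm49383 at -3.58, Gm20659 at -3.51 and Gm6741 at -3.48. No other gene of the 138 came within 1 log2 unit of the -5.02 of Entpd1. By both levels together, Gm6741 was nearest, with 0.95 in the Musclin library and 10.62 in the vehicle library, at a Euclidean distance of 1.39 on the log2 scale. It was followed by Gm44709, Gm12840 and 1700088E04Rik. By log2 level ratio, the nearest to Slc17a9 was Rmrp, an RNA component of an RNA-processing ribonuclease, at 5.11, although its levels were far higher, at 68.6 in the Musclin library and 1.99 in the vehicle library. It was followed by T2, Gm26776 and Gm43274. By both levels, T2 was nearest, with 0.76 in the Musclin library and 0.04 in the vehicle library, followed by Gm26776, Gm26825 and A530083I20Rik. Rmrp had 28 reads in the Musclin library, T2 had 10 and Gm43274 had 10, and like Slc17a9 each had 1 read in the vehicle library. Likeness here rests on 2 libraries.

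**Figure D4:**
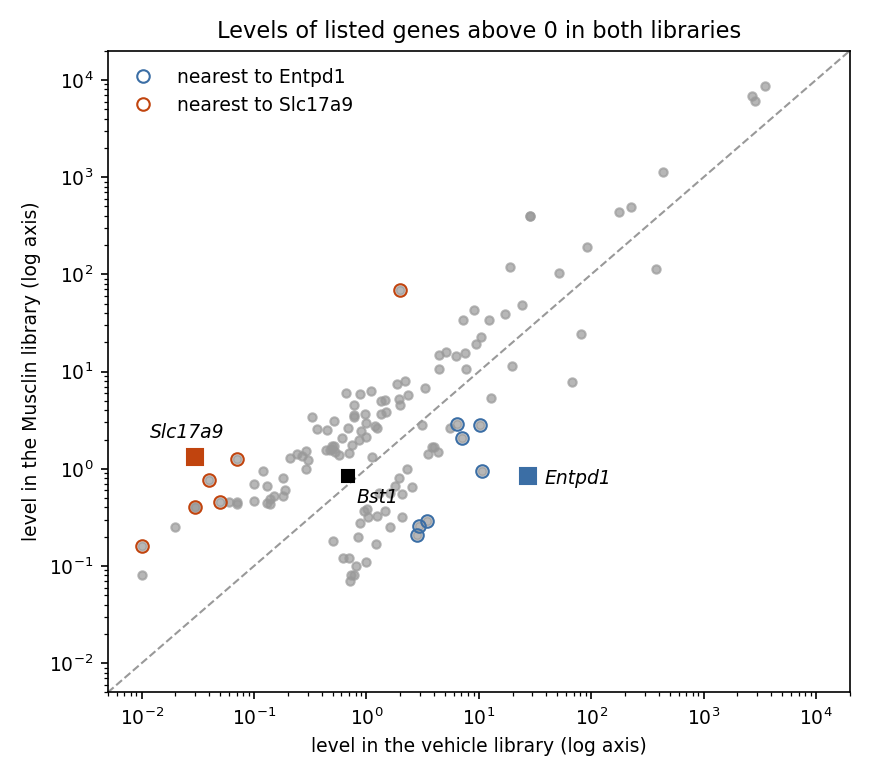
Level in the Musclin library against level in the vehicle library, log axes, for the 138 listed genes above 0 in both; squares mark Entpd1, Slc17a9 and Bst1 and circles the genes nearest to Entpd1 or Slc17a9 by either measure. Entpd1 stands apart below the line of equal levels with 0.85 against 27.58. Slc17a9 lies above that line, toward the left, with 1.33 against 0.03.

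The labelled cell type could not be checked, since 0 of 14 FAP marker genes were among the listed genes and the levels of the others were not analysed here. Entpd1 is also known from macrophages, endothelial cells and regulatory T cells, and 0 of 12 macrophage and myeloid, 0 of 8 endothelial and 0 of 10 lymphoid markers were listed. Of the mural, myogenic, and neural and Schwann lists, 0 of 5, 0 of 6 and 0 of 4 were listed. Since 0.772% of all genes tested were listed, a count of 0 in lists this short says nothing about these cell types. Of 5 erythroid markers, Hbb-bs, Hba-a1 and Hbb-bt were listed as higher, beside 0.5% of all genes tested, with a summed level of 51.24 in the Musclin library and 17.15 in the vehicle library. None of these 3 was at 0 in either library, and their part in the difference of Entpd1 or Slc17a9 was not tested.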

How the data were processed

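Libraries from 1 Musclin and 1 vehicle culture were compared. The authors' deposited table gives an expression signal per library (called level, unit not named), the fold, its log2 value, p-values and adjusted p-values, per the file header. The submitters' processing notes name RSEM, edgeR and GRCm38.p5, without roles or versions. Both level columns occur in duplicate, with identical values.

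The number of genes tested was taken as the one for which p times that number over adjusted p was whole, within 0.001, for all 178 genes. Reads were recovered from the authors' fold and p with the normal approximation for the log ratio of counts at a fixed mean log count (MA-plot random sampling), with the library totals as unknowns. This recovery, and the relation of level per read to transcript length, were chosen after seeing the data. No source used here names the program behind this formula. RSEM estimates need not be whole. As a check, 40 of the 41 values listed at a level of 0 came out as 0.5 reads and the other as 0.02. On simulated data the procedure recovered reads, totals and tests in 5 of 5 simulations of 176 genes. The simulated p-values were made with the same formula, so this checks the solving and not whether the authors used that formula. No further p-value was computed. Levels were compared as ratios without a pseudocount. Transcripts and positions are from GENCODE M21 (GRCm38), upstream windows from RefSeq (GRCm38.p6), and copies from BLAST+ 2.17.0 (megablast). Python 3.11.15, numpy 2.4.6, pandas 2.3.3, scipy 1.17.1 and matplotlib 3.10.9 were used.

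The members and gene lists were chosen with earlier results of these data known. The rule for named genes took the members, listed genes of the purine and marker lists and genes with a gap over 1. It also took the nearest listed neighbours. For each member it took the 4 listed genes above 0 in both libraries nearest by level ratio and by both levels. Alternatives were pseudocounts, the authors' fold, rounding, and stricter thresholds for listing.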

Additional observations from a re-analysis of the deposited data

How the results depend on the processing

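With 1 library per group, no library could be left out. No paired analysis was possible because each group has 1 library. Neither member changed direction under any alternative run. This is no check of the direction, since a pseudocount keeps the sign of a ratio and rounding moves only its last digit. The authors' fold and its counting interval belong to genes already listed in that direction. The log2 level ratio of Entpd1, -5.02, was -3.95 with a pseudocount of 1, -2.48 with a pseudocount of 5 and -1.69 as the authors' log2 fold. The log2 bounds of the counting interval of its fold, added after seeing the data, were -2.28 and -1.12. The log2 level ratio of Slc17a9, 5.47, was 1.18 with a pseudocount of 1 and 0.33 with a pseudocount of 5, a loss that follows from its low levels, and the lower log2 bound of its counting interval was 1.2. Of the 3 listed purine genes, 1 (Entpd1) had an adjusted p of 0.001 or less and 1 (Slc17a9) an absolute log2 fold of 2 or more. An adjusted p of 0.01 or less and a level of at least 1 in the higher library each kept Entpd1 and Slc17a9, and a minimum of 5 reads in both libraries, added after seeing the data, kept Bst1 and Entpd1. Depth limits Slc17a9 most, with 14 reads in all.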

Other observations

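Few reads in 1 library were common in the table: 50 of the 178 genes with recovered reads had 1 read or fewer in 1 of the libraries, counting those listed at 0, and for 7 of them, Slc17a9 included, the vehicle value was exactly 1. The genes T2, Gm43274 and Vmn2r24 each had 10 reads in the Musclin library and 1 in the vehicle library. They share 1 fold in the authors' deposited table, 11.8 (Vmn2r24 was named after its values were seen). The log2 level ratios of T2 and Gm43274 were 4.25 and 4. With vehicle levels printed as 0.04 and 0.01, this difference lies within rounding. Gm12940 and Gm3892 had 7.73 and 19.31 reads in the Musclin library and 38.23 and 55.4 in the vehicle library, yet their log2 level ratios were -0.16 and 0.25.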
